A study of Mus musculus with 4 samples.

Results

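Glucocorticoid-induced genes were followed in mouse lung after inhalation of hexamethylene diisocyanate (HDI), a reactive chemical of polyurethane paints and an irritant of the airways. The 6 genes were Fkbp5, Zbtb16, Tsc22d3, Sgk1, Angptl4 and Map3k6, known targets of the glucocorticoid receptor. They were chosen by name, with their intensities on all 4 arrays and their high 6 h values in view, so their own values are given as a description. All 6 were among the 8251 genes with a named probe set on the array, an Affymetrix oligonucleotide array on which a probe set reads 1 transcript with several short probes. They were read by 10 probe sets.

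The study compared whole lungs of inbred C57BL/6J mice, pooled, by 1 array per pool. Of the 4 pools 1 was unexposed, and the other pools were collected 6, 18 and 90 h after an aerosol of HDI at 10 mg per cubic metre. How many animals made up a pool, how long they were exposed and at what hour lungs were taken is not stated in the labels. No pool was measured again, so no difference carries a p-value, the number of arrays limits the precision, and a fold describes these pools. All comparisons with unexposed lungs share 1 array.

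Glucocorticoids are steroid hormones of the adrenal gland, released in a daily rhythm and under stress. They bind a receptor held in the cytoplasm by Hsp90 and its co-chaperones. The bound receptor enters the nucleus and attaches, as a pair, to DNA elements built as an inverted repeat of a short arm. In lung, glucocorticoids are known for restraining inflammation, for sodium and fluid transport across the epithelium and for maturation before birth. Several genes studied here, Fkbp5 and Tsc22d3 among them, are widely used as readouts of receptor activity.

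Promoter sequence is shown because letters that match the receptor's element can be looked for in it, though only within the windows searched. RefSeq promoter windows of build GRCm38.p6, each covering 250 bases before and 50 after an annotated start of transcription, were matched by symbol and found for Fkbp5, Tsc22d3, Sgk1 and Map3k6, but not used here for Zbtb16 and Angptl4. These were 11 windows, since Sgk1 had 6 annotated starts and Tsc22d3 had 3. Both strands were searched for the full palindrome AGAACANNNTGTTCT and for its looser core GNACANNNTGTNC, which lies inside it, so that every match of the first is also a match of the second. The full palindrome stood in 1 Sgk1 window, and in 3 of 32851 windows of the whole table, the other two belonging to Acnat2 and Gm35041. The core stood in that Sgk1 window and in the Map3k6 window, and in 0.475% of all windows. The shorter arm TGTTCT, which is part of the palindrome, was in 4 of the 11 windows and in 19.0% of all windows. Those 4 windows belonged to 2 members, Sgk1 and Tsc22d3, so they are not 4 separate genes. The 250 bases before the start are printed for the windows with a match and for Fkbp5, which had the highest measured fold of the members at 6 h, that of Map3k6 being a lower limit. Capitals mark the match.
Sgk1, chr10:21993640-21993889, plus strand: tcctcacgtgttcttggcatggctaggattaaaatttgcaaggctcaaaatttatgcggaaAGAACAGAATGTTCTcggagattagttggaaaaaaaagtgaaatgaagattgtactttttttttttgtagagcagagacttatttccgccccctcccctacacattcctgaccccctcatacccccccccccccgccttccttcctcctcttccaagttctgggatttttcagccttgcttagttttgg
Map3k6, chr4:133240568-133240817, plus strand: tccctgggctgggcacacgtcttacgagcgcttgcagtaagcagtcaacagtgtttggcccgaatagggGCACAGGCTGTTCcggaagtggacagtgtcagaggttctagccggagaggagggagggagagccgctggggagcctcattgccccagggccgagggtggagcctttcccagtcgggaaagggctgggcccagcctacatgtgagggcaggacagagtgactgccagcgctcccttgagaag
Fkbp5, chr17:28486150-28486399, minus strand: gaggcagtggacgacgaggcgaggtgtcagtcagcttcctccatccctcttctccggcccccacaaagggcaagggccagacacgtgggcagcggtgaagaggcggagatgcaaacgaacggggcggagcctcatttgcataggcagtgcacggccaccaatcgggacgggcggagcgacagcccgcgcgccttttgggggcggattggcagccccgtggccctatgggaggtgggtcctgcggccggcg
The Sgk1 palindrome began 189 bases before that start, and the Map3k6 core 181 bases before its start. The Fkbp5 window held neither, which says only that these letters are not in this window. A match is a description of the sequence and not a measured binding site.

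Levels are given in scaled intensity units, the deposited intensities after each array was brought to a common trimmed mean. Values under a floor of 77.7 units were treated as too dim to measure. Where only 1 of 2 arrays was above the floor, the fold is a lower limit and reads "at least", and where neither was, no fold is given. Of the 6 members, 5 passed the floor on 1 or more arrays and 3 on all 4 arrays. A probe set that dim does not show that a transcript is absent.

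At 6 h all 5 measurable members were at least 2-fold above the unexposed pool. By the brightest probe set of each the folds ran from 2.34-fold to 6.73-fold, with Map3k6 a lower limit, at least 5.56-fold. A dimmer probe set of Zbtb16 gave 2.05-fold. The highest level of these members among the 4 pools was at 6 h in each case. Of all 6044 genes compared at 6 h, 2.17% were at least 2-fold higher and 1.51% at least 2-fold lower, a direction in which no member was found. Since the members were chosen with these values known, their count is a description and not evidence of enrichment. Map3k6, under the floor in the unexposed pool, could only come out higher at 6 h. Whole lung RNA cannot tell fewer or more cells of a type apart from less or more RNA per cell.

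Fkbp5 encodes FKBP51, a co-chaperone of Hsp90 that lowers the receptor's affinity for hormone and so closes a feedback loop. Its level was 108, 726, 149 and 73.9 units in the unexposed, 6, 18 and 90 h pools. The 6 h pool stood far above the rest, and the 90 h pool was below the floor. Fkbp5 was 6.73-fold higher at 6 h than in unexposed lungs, rank 6 of the 6044 genes compared. At 18 h it was 1.38-fold higher, and at 90 h at least 1.39-fold lower.

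Zbtb16 encodes PLZF, a zinc finger transcription factor. It was read by 2 probe sets. The brighter, whose suffix marks probes shared with another set, had 213, 891, 101 and 86.7 units in the unexposed, 6, 18 and 90 h pools. The dimmer had 99.1, 203, 94.5 and 90.4 units. Both were highest at 6 h, at 4.18-fold and 2.05-fold above unexposed lungs. They parted at the later times. The brighter was 2.12-fold lower at 18 h and 2.46-fold lower at 90 h than in unexposed lungs, while the dimmer had log2 differences of -0.07 and -0.13, so the level below unexposed lungs rests on the brighter probe set.

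Tsc22d3 encodes GILZ, a leucine zipper protein that carries part of the anti-inflammatory action of glucocorticoids. Its only probe set had 49.97, 55.9, 68.9 and 45.9 units in the unexposed, 6, 18 and 90 h pools. All 4 values were under the floor, so no fold is given and nothing can be said about this gene's response.

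Sgk1 encodes the serum and glucocorticoid regulated kinase, which keeps epithelial sodium channels at the cell surface. It was the brightest member, with 545, 1275, 653 and 691 units in the unexposed, 6, 18 and 90 h pools. Its excess at 6 h was 2.34-fold over unexposed lungs, and it ranked 86 of 6044 genes. This was the smallest among the 5 measurable members by the brightest probe set of each. The dimmer Zbtb16 probe set was lower, at 2.05-fold. Angptl4 with its probe sets averaged had a log2 difference of 1.06, against 1.23 for Sgk1. At 18 and 90 h Sgk1 was 1.20-fold and 1.27-fold higher than in unexposed lungs, and the 2 later pools differed from each other by 0.08 log2 units.

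Angptl4 encodes a secreted inhibitor of lipoprotein lipase, known also to respond to fasting, fatty acids and low oxygen. Of its 4 probe sets 2 were measurable, both with suffixes that mark possible cross-hybridisation. The brighter had 181, 702, 479 and 232 units in the unexposed, 6, 18 and 90 h pools, and the second had 108, 527, 346 and 138 units. Both gave the same order of pools, 6 h over 18 h over 90 h over unexposed. By the brighter Angptl4 was 3.89-fold higher at 6 h, 2.65-fold at 18 h and 1.29-fold at 90 h than in unexposed lungs, and by the second 4.88-fold, 3.20-fold and 1.28-fold. With all 4 probe sets averaged the log2 difference at 6 h was 1.06 in place of 1.96. The other 2 probe sets lay between 11.6 and 38.4 units, under the floor on every array.

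Map3k6 encodes ASK2, a kinase at the head of stress-activated kinase cascades. Its level was 73.5, 432, 139 and 48.5 units in the unexposed, 6, 18 and 90 h pools. The unexposed and 90 h pools were both under the floor, so the excess over unexposed lungs was at least 5.56-fold at 6 h and at least 1.79-fold at 18 h, with no fold at 90 h.

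**Figure D1:**
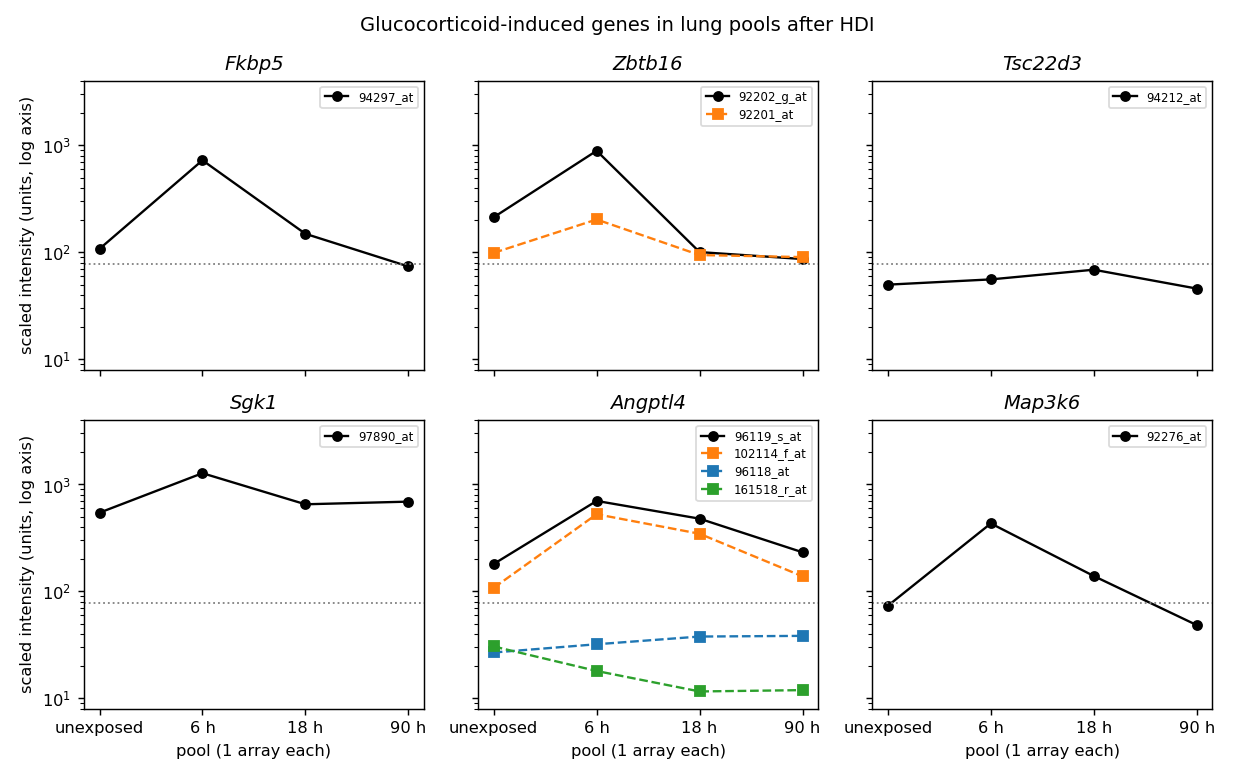
Scaled intensity (log axis) of every probe set of the 6 members in the unexposed, 6, 18 and 90 h pools, 1 array each; black circles are the probe set that stands for the gene, coloured squares the other probe sets, and the dotted line the floor of 77.7 units. Fkbp5, Zbtb16, Sgk1, Angptl4 and Map3k6 peak at 6 h, with Fkbp5 at 726 units, while Tsc22d3 stays below the floor in all 4 pools.

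After 6 h the members went apart. From 6 to 18 h, Fkbp5, Zbtb16 and Map3k6 were at least 2-fold lower at the later time, and Sgk1 and Angptl4 were 1.95-fold and 1.47-fold lower. Over all 5995 genes compared between these pools, 1.17% were at least 2-fold lower and 1.18% at least 2-fold higher. No member was higher by that much. Zbtb16 was 8.85-fold lower at 18 h than at 6 h by its brighter probe set, the largest decrease of all genes compared, and 2.15-fold by the dimmer. Fkbp5 was 4.86-fold lower, rank 3 from the bottom, and Map3k6 3.10-fold lower, rank 15 from the bottom. These ranks share the 6 h array with the values that chose the members.

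At 18 h against unexposed lungs, 1 of the 5 measurable members was at least 2-fold higher, Angptl4, and 1 at least 2-fold lower, Zbtb16. Over all genes 1.59% were that much higher and 0.944% that much lower. Averaged over all 4 probe sets, of which 2 were under the floor, Angptl4 had a log2 difference of 0.77 at 18 h in place of 1.41, under 2-fold. Of the 6 h log2 difference, 71.9% was left at 18 h in Angptl4, 34.1% in Map3k6, 21.3% in Sgk1 and 17.0% in Fkbp5. The Map3k6 share compares bounds.

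At 90 h no member was at least 2-fold higher than in unexposed lungs, where 0.726% of all genes were. Zbtb16, by its brighter probe set, was the only 1 of 4 compared that was at least 2-fold lower, where 0.924% of all genes were. Between 18 and 90 h Angptl4 was 2.06-fold lower at the later time, and Zbtb16 and Sgk1 were under 2-fold, with 0.954% of all genes at least 2-fold lower and 0.904% at least 2-fold higher. Fkbp5 was at least 1.92-fold and Map3k6 at least 1.79-fold lower at 90 h than at 18 h, lower limits that do not place them on either side of 2-fold.

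**Figure D2:**
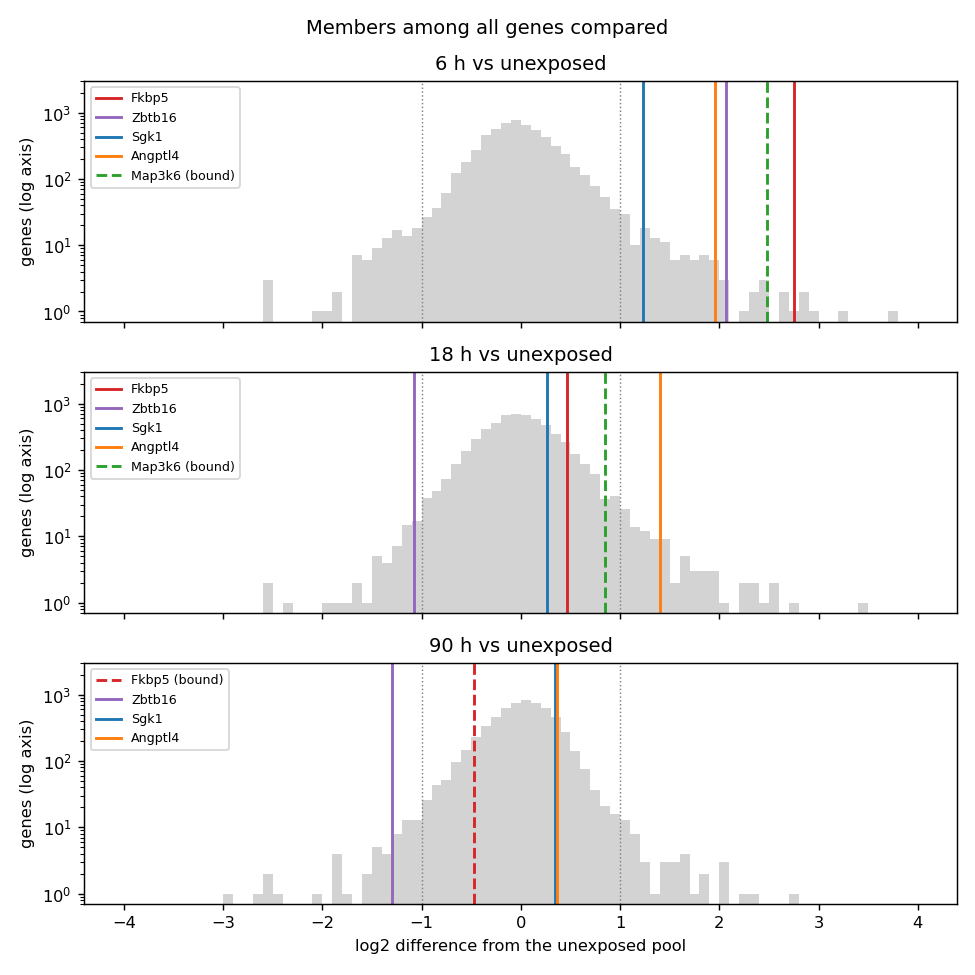
Histograms of the log2 difference from the unexposed pool for all genes compared (grey, number of genes on a log axis) at 6, 18 and 90 h, with a vertical line per member; dashed lines are bounds and dotted lines mark 2-fold. At 6 h all 5 measurable members lie beyond 2-fold on the higher side, with Fkbp5 at 2.75, and at 90 h Zbtb16 alone lies beyond 2-fold, on the lower side at -1.30.

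A wider list of 44 other genes known to be raised by glucocorticoids in some tissue was set beside the members. It was drawn up with earlier results of these data known, so its counts and medians are a description. Of the 44 genes 37 had a named probe set. At 6 h 12 of 35 compared stood at or above 2-fold, none stood as far below, and 30 were above 0. The median log2 difference was 0.67, against -0.04 over all genes. Of all genes compared at 6 h, 2.17% were at least 2-fold higher and 1.51% at least 2-fold lower. Genes under the floor in the unexposed pool entered only by passing it at 6 h, so the floor fixed them above 0. Pdk4 and Gadd45a were such genes among the 12. Mt2 and Mt1, metallothioneins that bind zinc, were 13.5-fold and 9.82-fold higher, Cdkn1a, the cell cycle inhibitor p21, 6.30-fold and Ddit4, an inhibitor of mTOR signalling, 3.79-fold. With both its probe sets averaged, Cdkn1a had a log2 difference of 1.62 in place of 2.65. These leading genes are known to answer other signals as well, metals and oxidants for the metallothioneins, DNA damage for Cdkn1a and low oxygen for Ddit4.

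The remaining genes of that group of 12 are named with their values known. Errfi1, a brake on the epidermal growth factor receptor, was 3.75-fold higher at 6 h and Cebpd, a transcription factor of the acute phase, 3.08-fold. Pdk4, which shuts pyruvate out of oxidation, was at least 3.27-fold higher and Gadd45a, a growth arrest gene, at least 2.82-fold. Zfp36, which destabilises cytokine messages, Edn1, the precursor of endothelin, and the clock gene Per1 were 2.09-fold, 2.09-fold and 2.08-fold higher. Glul, glutamine synthetase, stood at the threshold with 1224 units at 6 h against 611 units in unexposed lungs.

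At 18 h 5 of 31 genes of the wider list were at least 2-fold higher than in unexposed lungs, and none as far below. Of all genes, 1.59% were that much higher and 0.944% that much lower. The median of the list was 0.27, against -0.01 over all genes. The 5 higher genes were Mt2 (6.05-fold), Lcn2 (5.76-fold), Mt1 (3.80-fold), Cebpd (2.55-fold) and Cdkn1a (2.40-fold). Lcn2, an iron-siderophore binding protein, had 438, 824, 2524 and 667 units in the unexposed, 6, 18 and 90 h pools, a peak at 18 h that none of the 5 measurable members had. At 90 h none of 30 was 2-fold away in either direction, where 0.726% of all genes were that much higher and 0.924% lower. The median was 0.07, against 0.03 over all genes. Cdkn1a came nearest to 2-fold, at 1.92-fold higher.

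**Figure D3:**
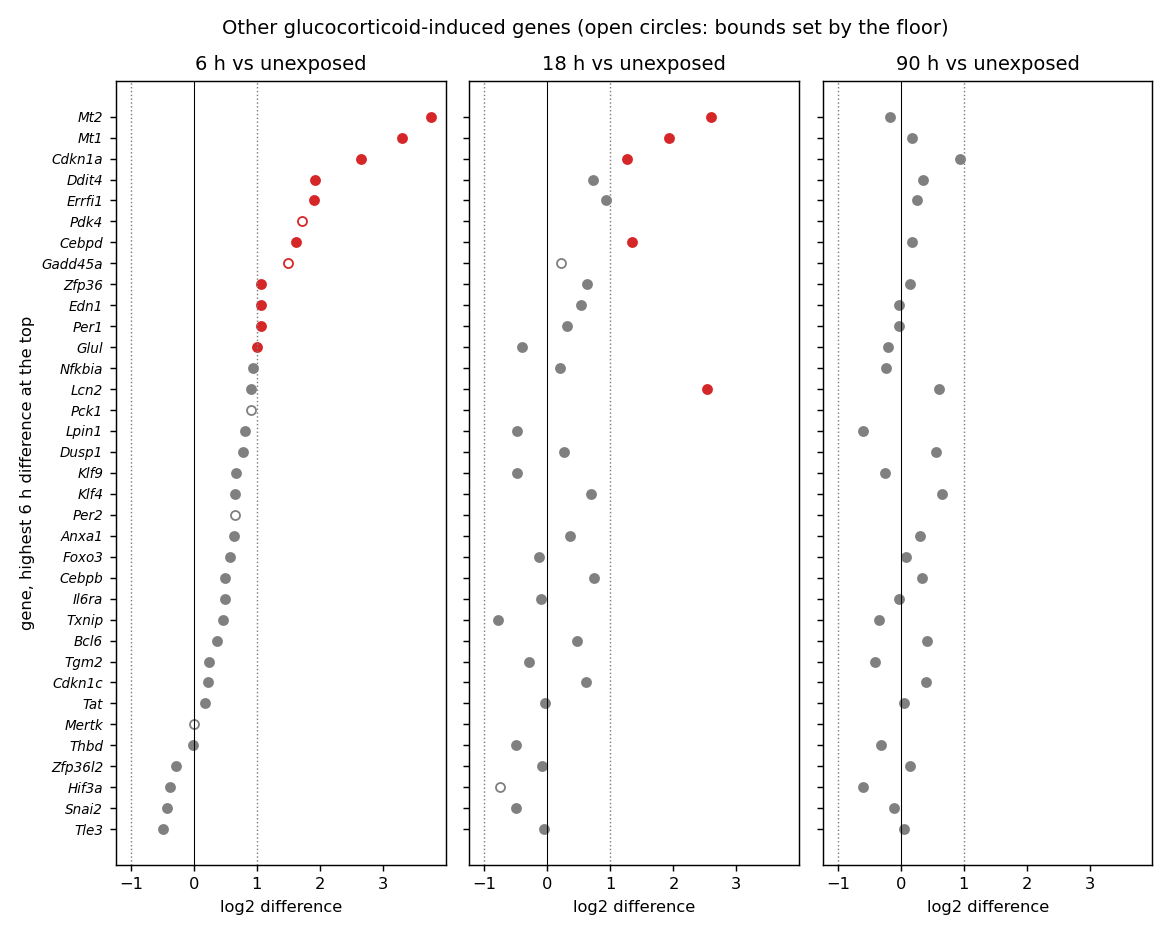
Log2 difference from the unexposed pool at 6, 18 and 90 h for the 35 other glucocorticoid-induced genes compared at 6 h, ordered by the 6 h value with the highest at the top; red points are at least 2-fold higher, grey points are nearer to 0, open circles are bounds and dotted lines mark 2-fold. At 6 h 12 genes are red, at 18 h 5 and at 90 h none.

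The receptor itself was not measurable. Nr3c1, the glucocorticoid receptor gene, had 30.5 to 41.4 units by its only probe set, under the floor in all 4 pools. Hsd11b1, the enzyme that regenerates active hormone within tissues, had 618, 764, 638 and 609 units in the unexposed, 6, 18 and 90 h pools. Hsd11b2, which inactivates the hormone, had 350, 317, 265 and 235 units and was 1.49-fold lower at 90 h than in unexposed lungs. Neither enzyme was 2-fold away at any time.

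The closest relative of Fkbp5 in the receptor complex did not share its course. Fkbp4, which encodes FKBP52 and competes with FKBP51 on the receptor complex, had 444, 306, 421 and 546 units in the unexposed, 6, 18 and 90 h pools by a probe set with a suffix. It was 1.45-fold lower at 6 h than in unexposed lungs, and with both its probe sets averaged the log2 difference was -0.17. Of 17 genes of the receptor, its chaperones, cofactors and steroid enzymes compared at 6 h, 2 stood at or above 2-fold and none as far below, with a median log2 difference of 0.24. Those were Hspa1b (6.30-fold) and Hspa1a (at least 5.27-fold), inducible 70 kDa heat shock genes of nearly the same sequence. Genes under the floor in the unexposed pool, Hspa1a among them, could not be below 0. Over all genes at 6 h, 2.17% were at least 2-fold higher and 1.51% lower, with a median of -0.04. At 18 h the same list had 2 of 18 higher, again Hspa1b and Hspa1a, and a median of 0.29. Over all genes at 18 h, 1.59% were that much higher and 0.944% that much lower, with a median of -0.01. The co-chaperone Stip1 was 1.83-fold higher at 18 h.

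Genes that glucocorticoids are known to lower were mostly too dim. Of 32 on the array 14 could be compared at 6 h, with a median of -0.14, 1 at least 2-fold lower and none higher. The median over all genes was -0.04, with 1.51% at least 2-fold lower and 2.17% higher. The lower gene was Ccl5, a chemokine of T cells, with 269, 115, 89.6 and 153 units in the unexposed, 6, 18 and 90 h pools. Icam1, a leukocyte adhesion molecule, was in contrast 1.74-fold higher at 6 h, and Mmp3, a matrix protease, was 2.50-fold higher at 18 h.

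Downstream of Sgk1, the epithelial sodium channel subunits were not analysed here. Nedd4l, the ubiquitin ligase that Sgk1 phosphorylates, had 223, 381, 260 and 282 units in the unexposed, 6, 18 and 90 h pools, and was 1.71-fold higher at 6 h by a probe set with a suffix. Without such probe sets its log2 difference at 6 h was 0.31. Of 8 ion transport and Sgk1 target genes compared, none was 2-fold away at 6 h. Kcnq1, a potassium channel, had 136 units at 18 h and 132 units at 90 h, against 272 units in unexposed lungs, and was 2.07-fold lower at 90 h. Downstream of Map3k6, none of 15 stress kinase genes was 2-fold away at 6 h (median 0.06). Map2k3, a kinase upstream of p38, came highest at 1.57-fold. Beside these 2 lists, 2.17% of all genes were at least 2-fold higher at 6 h and 1.51% lower.

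The genes that share Angptl4's other known inputs were mixed. Of 15 fasting and fatty acid oxidation genes compared at 6 h, Angptl4 included, 3 were at least 2-fold higher and 1 lower (median 0.25). Besides Angptl4, a member chosen with its 6 h value in view, these were Pdk4 and Fabp4 (2.74-fold). Pdk4, under the floor in the unexposed pool, was compared as a bound and could not be below 0. The lower gene was Cd36, a fatty acid transporter read by a probe set with a suffix. Without suffix-marked probe sets the log2 difference of Cd36 was 0.65 in place of -1.15. Of 17 hypoxia genes 2 were at least 2-fold higher at 6 h, Ddit4 and Adm (at least 3.67-fold), with a median of 0.16. Hypoxia genes under the floor in the unexposed pool, Adm among them, could not be below 0. Beside both lists, 2.17% of all genes compared at 6 h were at least 2-fold higher and 1.51% lower. The median over all genes was -0.04.

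Markers of other cells and clock genes were set beside the members. Of 6044 genes compared at 6 h, 2744 were above 0 and 3300 below, with 2.17% at least 2-fold higher and 1.51% lower. All 9 fat cell markers compared were above 0 (median 0.78), of which 1, Fabp4, was at least 2-fold higher. Fat cell markers under the floor in the unexposed pool, Ucp1 among them, were compared as bounds and could not be below 0. The 10 fat cell markers on the array, values under the floor included, summed to 1567, 2859, 1626 and 1492 units in the unexposed, 6, 18 and 90 h pools. Lpl, Fabp4 and Car3 weighed most in the 6 h sum, with 786, 597 and 566 units. In unexposed lungs they had 419, 218 and 344 units. Lep and Lipe were 1.05-fold and 1.03-fold higher at 6 h. Adipoq, the defining gene of mature fat cells, had 83.9, 145, 46.9 and 62.5 units, with the 18 and 90 h values under the floor. Angptl4 and Pdk4 are also expressed in fat. All 8 B cell markers compared at 6 h were below 0 (median -0.68), of which 3 were at least 2-fold lower. Ms4a1, under the floor at 6 h, could not be above 0. The 11 B cell markers on the array, values under the floor included, summed to 3082, 1680, 2085 and 2180 units in the unexposed, 6, 18 and 90 h pools. Of the clock genes 14 of 17 were above 0 at 6 h (median 0.34), with 1 at least 2-fold higher and 1 lower, Dbp, an output of the clock, by 2.57-fold. Clock genes under the floor in the unexposed pool, Arntl among them, could not be below 0. Nr1d1, a repressor within the clock, was 1.82-fold, 4.93-fold and 7.85-fold lower at 6, 18 and 90 h than in unexposed lungs. The part of fat cells, B cells or the hour of collection in the members' levels was not tested. Lung epithelial markers had summed levels of 33983, 31684, 31359 and 29781 units in the unexposed, 6, 18 and 90 h pools. Bright genes weigh most in this sum, Scgb1a1 with 10632 units and Sftpc with 9871 units in unexposed lungs. Of 10 compared at 6 h, 5 were above 0 and 5 below (median -0.01), with 1 at least 2-fold higher and none lower. That was Krt18, 2.62-fold higher at 6 h and 2.56-fold at 18 h. Krt8 was 1.98-fold and 2.13-fold higher at these times.

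The genes with the most similar course were found by distance over 3 log2 differences from unexposed lungs. The mean of the 6 members was 1.75, 0.32 and -0.18 at 6, 18 and 90 h, in which Tsc22d3, not measured, entered as 0 and bounds entered as values. Over the 5 measurable members the mean was 2.09, 0.38 and -0.21. The search used the mean of 6. Among 5083 genes above the floor on all 4 arrays, Lox, the lysyl oxidase that crosslinks collagen, lay nearest (distance 0.32), with 176, 516, 224 and 185 units in the unexposed, 6, 18 and 90 h pools. Pla2g12a, a secreted phospholipase, Nampt, an enzyme of NAD synthesis, and Plxna2, a semaphorin receptor, followed at distances of 0.42, 0.42 and 0.46. Nampt had 118, 333, 118 and 114 units, back at the unexposed level by 18 h. Rhoj, Qk, Cfc1, Glns-ps1, Zwint and Hnrnpdl completed the nearest 10, at up to 0.62. Glns-ps1 is a pseudogene of glutamine synthetase and its probes may read Glul. With the mean of 5, an alternative added after seeing the data, Hmox1, heme oxygenase, came nearest (0.47), and 5 of the nearest 10 genes were the same. Of the 5083 genes 91 were at least 2-fold higher at 6 h, and 86 of those were within 2-fold of unexposed lungs at 90 h. Of these 86 genes 23 were still at least 2-fold higher at 18 h.

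Single members were searched in the same way, and Fkbp5 and Map3k6 had near genes in common. Fkbp5 lay nearest to Hmox1 (0.47) and then Txnrd1, thioredoxin reductase (0.79). Map3k6 lay nearest to Txnrd1 (0.14) and then Hmox1 (0.26). Bounds entered these 2 searches as values, and Map3k6 at 90 h, not measured, entered as 0. The other members had different nearest genes. Angptl4 lay nearest to the small heat shock gene Hspb8 (0.17), which was 3.78-fold higher at 6 h and 2.37-fold at 18 h, and also near Cebpd (0.39). Sgk1 lay nearest to Nes, nestin (0.21). Zbtb16 had no near neighbour by its brighter probe set, whose fall below unexposed lungs the dimmer did not share. No search was made with the dimmer. The gene closest to the brighter, Lyve1, a receptor of lymphatic vessels and macrophages, was at 1.06 and had 353, 1046, 313 and 171 units. With 3 values per gene, such likeness describes these pools only.

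**Figure D4:**
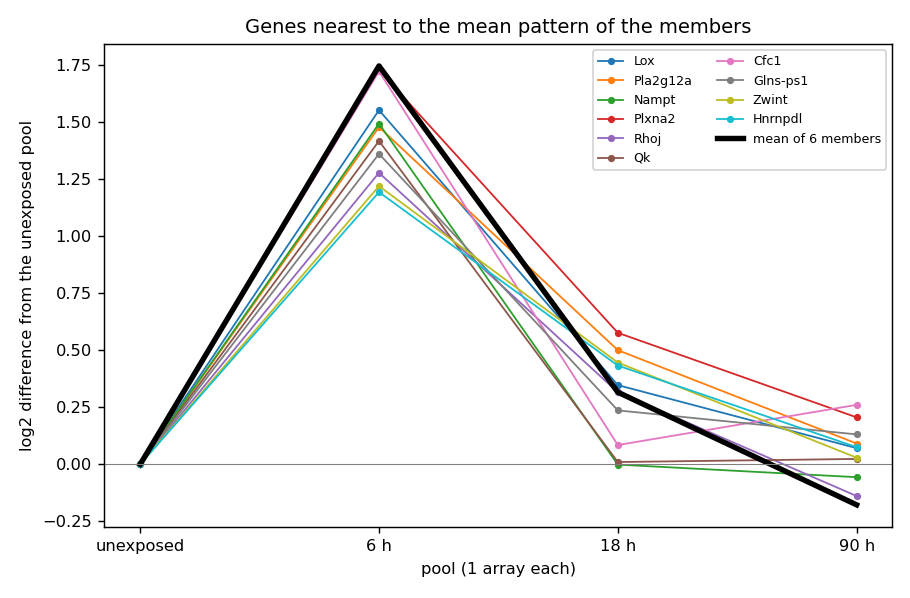
Log2 difference from the unexposed pool in the unexposed, 6, 18 and 90 h pools for the mean of the 6 members, Tsc22d3 at 0 (thick black line), and the 10 genes nearest to it (thin lines), 1 array per pool. All 10 genes peak at 6 h, between 1.19 and 1.73, near the members' mean of 1.75, and lie within 0.58 of the unexposed level from 18 h on.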

How the data were processed

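The values analysed are the intensities the authors deposited, linear and 1 for each probe set on each array; how they were computed from the scans is not given in the sources used. Gene names came from the platform annotation, with 10833 of 12488 probe sets naming 1 gene. Each array was scaled to the mean of the 4 trimmed means (2% cut from each end; factors 1.07, 0.993, 0.970 and 0.972), values under the 40th percentile (77.7 units) were raised to this floor before log2 values were formed. The probe set with the highest mean stood for a gene. Suffix-marked probe sets are those with a letter before the final "at". No test was possible with 1 array per group; calls are at 2-fold. Medians of 9 spike-in probe sets differed from the unexposed array by -0.11, 0.14 and 0.36 log2 units at 6, 18 and 90 h. Between genes' paired probe sets the robust SD of a log2 difference from unexposed was 0.28, 0.28 and 0.24.

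The members and lists were chosen with earlier results of these data known. Named were all members, up to 4 genes per list and time with the largest differences, the receptor gene, 2 steroid enzymes and Fkbp4, and the nearest genes by Euclidean distance; further names are marked as chosen after seeing values. Code was tested on simulated data. Alternatives were other scalings (none, median, quantile), floors (25th and 60th percentile), a pseudocount of 50, averaging probe sets, leaving out suffix-marked ones, and thresholds of 1.5-fold and 3-fold. Python 3.11.15, numpy 2.4.6 and pandas 2.3.3 were used.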

Additional observations from a re-analysis of the deposited data

How the results depend on the processing

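At 6 h 4 or 5 members passed the threshold as higher under every alternative run, and none as lower. The sizes moved more: the log2 difference ran from 1.06 to 2.07 for Angptl4, lowest with probe sets averaged, from 1.04 to 2.18 for Zbtb16, lowest without suffix-marked probe sets, and from 1.65 to 2.56 for Map3k6, lowest with the higher floor. Later calls rested on single probe sets or on the floor. The 1 member lower at 18 h, Zbtb16, became 0 without scaling, with a floor at the 60th percentile, with a pseudocount, with probe sets averaged, without suffix-marked probe sets and at 3-fold. The 1 lower at 90 h became 0 under the same alternatives except no scaling. The 1 member higher at 18 h, Angptl4, became 0 with probe sets averaged, without suffix-marked probe sets and at 3-fold, and 2 at 1.5-fold. Averaging counts probe sets at the floor as no difference, and without suffix-marked probe sets Angptl4 had none above the floor. The 1 member lower at 90 h than at 18 h became 3 at 1.5-fold and when the floor was the 25th percentile, and 0 with a pseudocount, averaging, no suffix-marked probe sets or 3-fold.

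Of the other glucocorticoid-induced genes, the 12 higher at 6 h became 21 at 1.5-fold and 7 at 3-fold, and the 5 higher at 18 h became 11 and 3, with 2 lower at 1.5-fold. At 90 h 3 were higher and 2 lower at 1.5-fold, and 1 was higher without scaling. Among single genes Cd36 at 6 h turned round to 0.65 without suffix-marked probe sets. Without scaling the median log2 difference over all genes was 0.12 at 18 h and 0.16 at 90 h, against -0.01 and 0.03 after scaling, and the share of higher genes among those past 2-fold was 81.6% and 61.2%, against 62.7% and 44%. No paired analysis was possible because each group had 1 array and no test was made.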
